A study of Mus musculus with 9 samples.

Results

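The genes described here encode interleukin receptor chains of mouse T cells and their relatives: Il2ra, Il2rb, Il2rg, Il7r, Il4ra, Il6ra, Il21r, Il15ra and Il17ra. A probe set, a group of short oligonucleotides that together read 1 transcript, was assigned to a chain when the platform annotation gave it exactly 1 gene symbol and that symbol was the chain's. This gave 16 of the 45101 probe sets of the array and 8 of the 9 chains, out of 18193 genes with a probe set of their own. Il2rg, the common gamma chain, was matched to no such probe set and was not analysed here. For each of the 8 chains the brightest probe set on average stood for the gene, and all 8 passed the filter on dim probe sets that left 13296 genes to test.

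Expression was measured on 9 Affymetrix arrays in a study of T-ALL, the acute leukemia of T cell precursors, and of the non-malignant effects of overexpressing NOTCH1, a receptor that commits progenitors to the T lineage. The groups were Control, Abnormal non-malignant and NIC Tumor, with 3 arrays each of RNA from sorted cells. The labels name no genotype, strain, age, promoter or sorted population, do not spell out NIC, and leave unstated whether each sample is a separate animal and each tumor 1 clone, so p-values measure the spread between these samples, which may be technical. The values are log2 expression as deposited, and because cells were profiled in bulk, fewer cells of a type and less RNA per cell cannot be told apart.

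Interleukin receptors are built from shared and private chains. The IL-2 receptor joins the alpha chain CD25 (Il2ra), which raises affinity, to the signalling beta chain (Il2rb) and the common gamma chain, and the IL-15 receptor exchanges CD25 for its own alpha chain (Il15ra). The common gamma chain also pairs with the IL-7, IL-4 and IL-21 receptor chains (Il7r, Il4ra, Il21r), and these receptors signal through Janus kinases (JAK) and STAT transcription factors. The IL-6 receptor alpha chain (Il6ra) works with gp130, whereas the IL-17 receptor (Il17ra) uses a separate adaptor, Act1. In the thymus, CD25 marks early CD4-CD8- thymocytes that depend on Notch and IL-7 signals, and both Il2ra and Il7r are low in CD4+CD8+ cells.

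The promoter windows of Il2ra, Il4ra and Il21r are shown because these chains had the largest rise and the largest falls below. They run from 250 bases before to 50 after the start site (RefSeq, GRCm38.p6), 5′ to 3′ on the gene's strand, at chr2:11642542-11642841 (+) for Il2ra, chr7:125552021-125552320 (+) for Il4ra and chr7:125603179-125603478 (+) for Il21r. Capitals mark matches to the motifs searched.
Il2ra: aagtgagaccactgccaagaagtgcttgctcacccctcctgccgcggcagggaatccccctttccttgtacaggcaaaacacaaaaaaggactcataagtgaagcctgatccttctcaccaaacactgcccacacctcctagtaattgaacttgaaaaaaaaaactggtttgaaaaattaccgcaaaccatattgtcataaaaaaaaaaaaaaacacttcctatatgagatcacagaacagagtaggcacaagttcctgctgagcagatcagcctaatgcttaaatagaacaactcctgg
Il4ra: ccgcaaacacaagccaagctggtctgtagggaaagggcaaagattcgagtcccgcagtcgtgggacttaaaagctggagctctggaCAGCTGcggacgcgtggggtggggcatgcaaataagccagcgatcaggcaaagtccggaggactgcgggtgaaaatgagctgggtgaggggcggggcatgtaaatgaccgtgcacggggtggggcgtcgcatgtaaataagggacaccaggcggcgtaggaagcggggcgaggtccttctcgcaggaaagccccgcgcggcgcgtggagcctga
Il21r: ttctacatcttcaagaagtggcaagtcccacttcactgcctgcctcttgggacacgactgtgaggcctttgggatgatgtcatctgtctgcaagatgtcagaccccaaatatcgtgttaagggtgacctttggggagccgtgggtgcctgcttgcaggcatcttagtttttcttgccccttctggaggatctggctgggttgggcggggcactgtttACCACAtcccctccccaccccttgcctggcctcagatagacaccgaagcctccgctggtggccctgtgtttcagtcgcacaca

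The motifs searched on both strands were TGGGAA (Rbpj, the DNA-binding partner of Notch), TTCNNNGAA (Stat), TGTGGT (Runx) and CAGCTG (E proteins). They occurred in 25.6%, 8.3%, 16.8% and 16.3% of 32851 promoter windows of the same length, a count that left out the windows of 1 chromosome. The Il2ra window held none of the 4. The Il4ra window held CAGCTG at -164, and the Il21r window held the Runx motif on the reverse strand at -33. The Il7r window held the Stat motif at -142 and the Runx motif at 4, the Il6ra window TGGGAA at -14, and 1 of 2 Il15ra windows CAGCTG at -38. These matches are descriptions of the letters, and binding was not measured.

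Some arrays stood apart from their groups. The most similar arrays were numbers 2 and 3 of the abnormal non-malignant group (SD of the differences between their genes 0.16, against 0.3 for the next pair). Tumor 1 was nearer to each non-malignant array (0.46 to 0.47) than to tumor 2 (0.63) or tumor 3 (0.79), and without it 3400 genes in place of 562 were called between tumors and non-malignant samples. Tumor 3 lay farther than the other tumors from the non-malignant arrays (0.89 to 0.92) and from the controls (0.96 to 1.05). Tumors varied more than the other groups (root mean square SD of a gene 0.49, against 0.27 in controls and 0.23 in non-malignant samples). Notch1 stood at 12.87 to 12.97 in non-malignant samples and 9.81 to 10.34 in controls, and at 12.92, 9 and 10.81 on tumor arrays 1, 2 and 3. All 5 measured T lineage markers exceeded an array's 40th percentile somewhere, and their summed level was 14.79 to 14.96 in controls, 14.74 to 14.98 in non-malignant samples and 14.15 to 14.62 in tumors. Against controls, Cd2 rose in non-malignant samples (1.42, limma adjusted p = 0.0072) and Thy1 fell in tumors (-1.29, limma adjusted p = 0.0212). The Cd2 call held without any 1 array (range 1.21 to 1.67), and that of Thy1 ended without any 1 control (range -1.5 to -0.94).

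Compared with controls, 1 of the 8 chains was called in the non-malignant samples, where 3.53% of all genes tested were called (2.87% higher and 0.654% lower), and it was higher. In tumors against controls 5 of 8 were called, where 15.7% of all genes were (8.48% higher and 7.19% lower), and 2 were higher and 3 lower. Between tumors and non-malignant samples 2 of 8 were called, both lower in tumors, where 4.23% of all genes were called (1.53% higher and 2.7% lower). Both comparisons with controls share the same 3 control arrays. The same shares over all genes are the background for the counts of called list genes below. The groups did not overlap for 7 of the 8 chains in the first of these comparisons, 4 being higher and 3 lower, where this held for 26.1% of all genes (17% higher and 9.15% lower). In tumors against controls 5 of 8 did not overlap, 2 higher and 3 lower (32.5% of all genes, 18.2% higher and 14.3% lower), and in tumors against non-malignant samples 4 of 8, 2 in each direction (27.1% of all genes, 12.3% higher and 14.8% lower). The median log2 difference of the 8 was 0.33, 0.33 and -0.4 in these comparisons, beside 0.01, 0.06 and 0.03 over all genes tested.

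**Figure D1:**
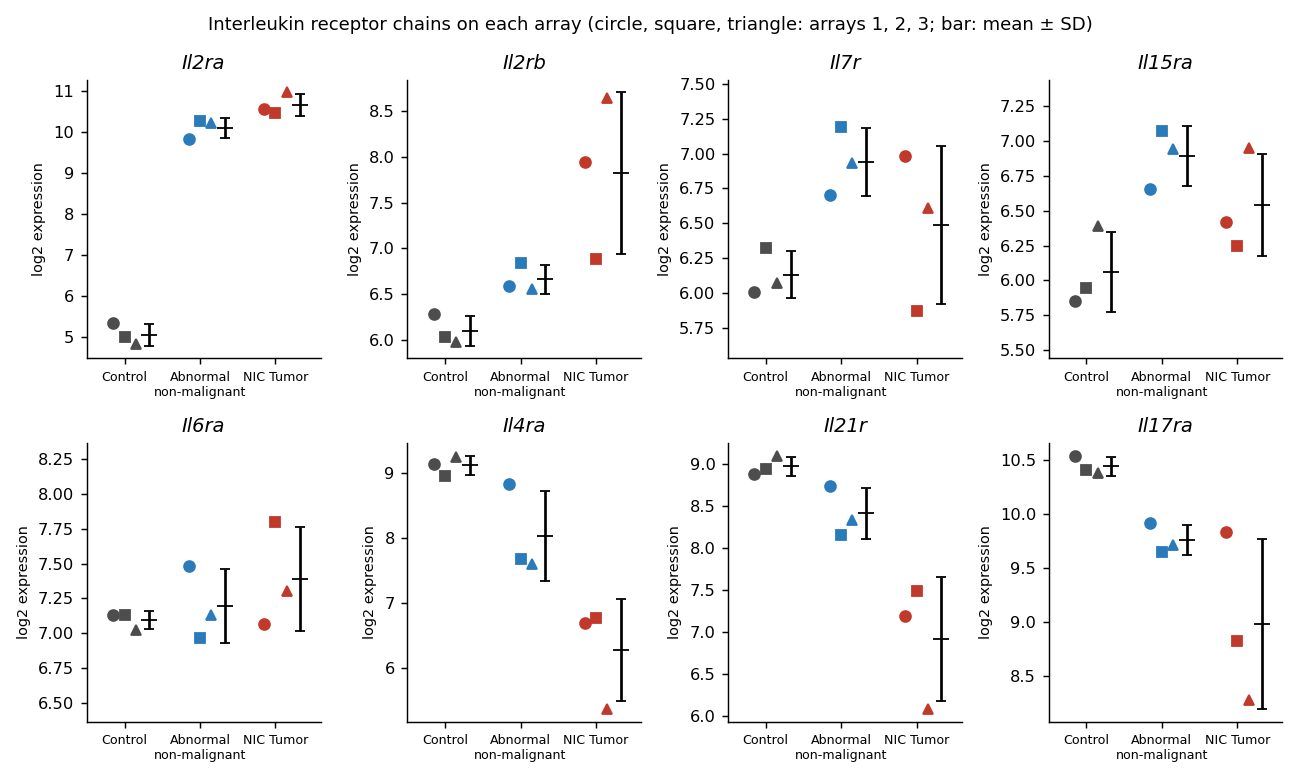
Log2 expression of the 8 interleukin receptor chains on each of the 9 arrays, with the group mean and SD beside the points; the y axes differ between panels. Il2ra lies at 4.82 to 5.34 in controls and above 9.82 on all other arrays, while Il4ra, Il21r and Il17ra are highest in controls.

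Il2ra had the largest difference of the 8 chains. In controls it stood at 5.34, 5 and 4.82 on arrays 1, 2 and 3, and in the abnormal non-malignant samples at 9.83, 10.28 and 10.21. In the tumors it stood at 10.56, 10.46 and 10.97. The groups were thus separate, each control far below every other array and the tumors above the non-malignant samples by a small margin.

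Il2ra rose by 5.05 ± 0.22 (SE) on the log2 scale in the non-malignant samples (limma adjusted p = 2.91e-06, n = 3 against 3) and by 5.61 ± 0.22 in the tumors (limma adjusted p = 2.15e-06). On 2 of 3 control arrays its value was below the array's 40th percentile, where signal and background are not told apart. With these arrays set to that percentile, the rise on this probe set was 28.9-fold in non-malignant samples and 42.6-fold in tumors. Between tumors and non-malignant samples the difference of 0.56 (95% interval 0.07 to 1.04) did not pass (limma adjusted p = 0.146). Both rises were called without any 1 of the 9 arrays, at 4.93 to 5.19 and 5.46 to 5.75.

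The other Il2ra probe set, 1420691_at, gave smaller rises in the same direction. It read 5.85, 6.42 and 5.48 in controls, 8.73, 10.05 and 10.03 in non-malignant samples and 9.54, 9.18 and 10.53 in tumors. Controls again lay below all other arrays, whereas tumors and non-malignant samples overlapped. Its differences from controls were 3.68 ± 0.45 and 3.83 ± 0.45 (SE, limma adjusted p over probe sets = 0.00314 and 0.00192). As folds these were 12.8 and 14.3, and all 3 controls exceeded the 40th percentile on this probe set.

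Some markers of early CD25+ thymocytes were high on the arrays where Il2ra was high, and others were not. The summed level of the 5 measured markers was 10.16 to 10.37 in controls, 14.04 to 14.18 in non-malignant samples and 12.78 to 13.7 in tumors. Of these 5, 3 rose in each group against controls by limma: Dtx1, a Notch pathway ubiquitin ligase (5.17 and 4.75), Hes1, a Notch-induced repressor (3.81 and 3.31), and the receptor Notch3 (2.87 and 1.79). The stem cell factor receptor Kit stayed between 5.67 and 5.98 on all 9 arrays. Ptcra, the pre-T cell receptor alpha chain, stood at 8.35 to 8.91 in controls, 11.65 to 12.19 in non-malignant samples and 10.3, 7.39 and 6.39 in tumors, so that tumors 2 and 3 lay below every control. It was called lower in tumors than in non-malignant samples (-3.84, limma adjusted p = 0.0336; the call held without tumor 1 and ended without each other array, range -4.97 to -3.02). Markers of regulatory and activated T cells, which also carry CD25, summed to 11.01 to 11.38 in controls, 11.81 to 12.02 in non-malignant samples and 10.78 to 11.69 in tumors. Foxp3, which defines regulatory T cells, was below the 40th percentile on all 9 arrays. In this list 1 of 6 tested genes rose in non-malignant samples, the adhesion receptor Cd44 (3.09), a call lost on leaving out control 2 or 3 or 1 of the non-malignant arrays (range 2.46 to 3.45 with 1 array left out). In the tumors 1 of the 6 fell, Tnfrsf18 (-1.22), called without tumor 1 but not without any other 1 array (range -1.65 to -0.77). The part of these cell types in the Il2ra values was not tested.

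**Figure D2:**
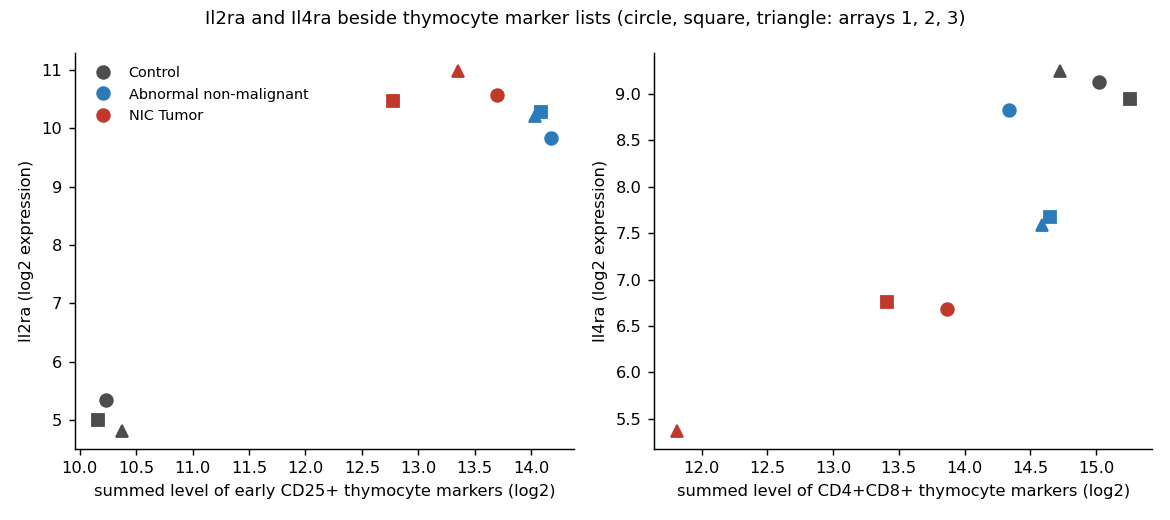
Log2 expression of Il2ra against the summed level of early CD25+ thymocyte markers (left) and of Il4ra against that of CD4+CD8+ thymocyte markers (right), 1 point per array. Controls sit at 10.16 to 10.37 on the left x axis with Il2ra at 4.82 to 5.34; tumor 3 has the lowest values on both axes at right.

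Il2rb, the signalling chain shared by the IL-2 and IL-15 receptors, was highest in the tumors. Controls stood at 6.29, 6.03 and 5.98, non-malignant samples at 6.58, 6.84 and 6.56, and tumors at 7.94, 6.89 and 8.64. The 3 groups did not overlap, but tumor 2 lay close to the non-malignant samples. Il2rb rose by 1.72 ± 0.36 (SE) in tumors against controls (3.3-fold, limma adjusted p = 0.0138). Against non-malignant samples the tumor difference was 1.16 ± 0.36 (SE; limma adjusted p = 0.0945), and the non-malignant difference from controls was 0.56 (95% interval -0.24 to 1.37; limma adjusted p = 0.636), which passed with only the 2 groups in the fit (adjusted p = 0.0385).

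The tumor call of Il2rb was lost by a small margin in some fits, and the size of the rise varied with the tumor left out. The call ended without control 2 or control 3 (limma adjusted p = 0.0517 and 0.0518), and with only the 2 groups in the fit (adjusted p = 0.0533). Over all genes, calls between tumors and controls also dropped without control 2 or control 3, from 2083 to 926 and 1011. Without tumor 2 the rise against controls was 2.19 and that against non-malignant samples 1.63, the latter then passing (limma adjusted p = 0.0131), and without tumor 3 they were 1.31 and 0.75. The other probe set, 1448759_at, put tumor 2 among the lower arrays, with 8.23, 5.9 and 8.44 in tumors, 5.78 to 5.88 in controls and 6.22 to 6.52 in non-malignant samples. On this probe set the tumor difference from controls was 1.69 ± 0.55 (SE; limma adjusted p over probe sets = 0.0758).

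NK cells are a further source of Il2rb. The summed level of the 4 measured NK markers was 7.79 to 7.89 in controls, 8.32 to 8.48 in non-malignant samples and 7.69, 7.62 and 7.94 in tumors. It was thus higher in non-malignant samples than in controls, as Il2rb was, and ordered the 3 tumors as Il2rb did, while the tumors lay below the non-malignant samples. The higher non-malignant sum came from Nkg7 (mean 6.29 in controls and 7.58 in non-malignant samples). Ncr1 stood at 5.52 and 5.54 there and Klrk1 at 6.42 and 6.28. None of the 4 markers alone ordered the tumors as Il2rb did. Klrd1 was below the 40th percentile on all 9 arrays. Of the 3 tested, the granule gene Nkg7 rose in non-malignant samples (1.3) and was lower in tumors than there (-1.64, limma adjusted p = 0.00264). The part of NK cells in the Il2rb values was not tested.

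Il7r, which carries the IL-7 signal for early thymocyte survival, was higher in non-malignant samples without passing the test. It stood at 6.01, 6.32 and 6.07 in controls, 6.7, 7.19 and 6.93 in non-malignant samples and 6.98, 5.87 and 6.61 in tumors. Every non-malignant array lay above every control, and the tumors spanned both groups, with tumor 2 lowest of all 9 arrays. The non-malignant difference was 0.81 ± 0.26 (SE; limma adjusted p = 0.179), and it passed without tumor 2 (adjusted p = 0.0443) and with only the 2 groups in the fit (adjusted p = 0.0169). The tumor difference was 0.36 (95% interval -0.24 to 0.95; limma adjusted p = 0.378). On the second probe set, 1448576_at, the differences were 0.74 in both groups, and 1 of 3 control arrays exceeded the 40th percentile. Mature T cells carry Il7r. The 4 measured mature T cell markers summed to 9.12 to 9.42 in controls, 11.01 to 11.73 in non-malignant samples and 11.29 to 11.91 in tumors. Of the 4, 3 were called higher in non-malignant samples and in tumors against controls: Itgb7 (1.89 and 1.05), Klf2 (2.76 and 2.71) and S1pr1 (2.09 and 2.84). The S1pr1 call in non-malignant samples ended without array 2 or 3 of that group, at 1.98 and 1.91. The part of mature T cells in the Il7r values was not tested.

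Il15ra, which binds IL-15 and can present it to neighbouring cells, was likewise higher in non-malignant samples without passing. Controls read 5.85, 5.94 and 6.39, non-malignant samples 6.66, 7.08 and 6.94, and tumors 6.42, 6.25 and 6.95. Non-malignant samples were all above the controls, and tumors overlapped both. The non-malignant difference was 0.83 ± 0.22 (SE; limma adjusted p = 0.0901), and it passed without tumor 3 (adjusted p = 0.0315) and with only the 2 groups in the fit (adjusted p = 0.0274). In tumors the difference was 0.48 (95% interval -0.02 to 0.98; limma adjusted p = 0.172). Its other probe set, 1422397_a_at, varied little, from 6.14 to 6.57 over the 9 arrays.

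Il6ra, the ligand-binding chain for IL-6, passed in no comparison. Controls stood at 7.13, 7.13 and 7.02, non-malignant samples at 7.48, 6.97 and 7.13, and tumors at 7.07, 7.8 and 7.3. All 3 groups overlapped, and tumor 2 was the highest array. The differences from controls were 0.1 (95% interval -0.38 to 0.58) in non-malignant samples and 0.3 (-0.18 to 0.77) in tumors (limma adjusted p = 0.96 and 0.361). Its second probe set, 1452416_at, exceeded the 40th percentile on 2 tumor arrays and on no other. Myeloid cells are a further source of Il6ra. The 8 myeloid markers summed to 8.62 to 8.9 in controls, 9.67 to 9.74 in non-malignant samples and 8.83 to 10.22 in tumors, where tumor 2 was again highest. The higher non-malignant sum came mainly from S100a8 (mean 5.25 in controls and 8.02 in non-malignant samples) and S100a9 (4.85 and 7.46). Lyz2 (6.89 and 6.96), Csf1r (6.73 and 6.82) and Cd14 (5.46 and 5.5) differed little. None of the 6 tested markers was called in any comparison. The part of myeloid cells in the Il6ra values was not tested.

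Il4ra, the IL-4 and IL-13 receptor chain, had the largest fall of the 8. It stood at 9.13, 8.95 and 9.25 in controls, 8.82, 7.68 and 7.59 in non-malignant samples and 6.68, 6.76 and 5.37 in tumors. The groups formed separate steps from controls down to tumors, although non-malignant array 1 lay near the controls and tumor 3 far below the other tumors. Il4ra fell by 2.84 ± 0.41 (SE) on the log2 scale in tumors against controls (7.14-fold lower, limma adjusted p = 0.00314). This call held without any 1 array, at -3.08 to -2.39.

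In non-malignant samples against controls the Il4ra difference was -1.08 ± 0.41 (SE; limma adjusted p = 0.27). The difference between tumors and non-malignant samples was -1.76 ± 0.41 (limma adjusted p = 0.0475). That call held without tumor 1 but ended without any other 1 array (values from -2 to -1.31) and with non-malignant arrays 2 and 3 averaged (-1.96, adjusted p = 0.139). It also ended with the replicate block, quantile or median scaling, no filter, every probe set tested on its own or only the 2 groups in the fit (adjusted p = 0.0528, 0.0508, 0.0516, 0.0614, 0.0674 and 0.128), and at a threshold of 0.01. Of the other Il4ra probe sets, 1423996_a_at fell by 1.99 ± 0.25 (SE) in tumors against controls (limma adjusted p over probe sets = 0.00237). The other, 1447858_x_at, stayed between 6 and 6.57 on all 9 arrays and showed no such difference (-0.07 ± 0.15, SE).

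Il21r, the receptor chain for the T helper cytokine IL-21, fell together with Il4ra. Controls stood at 8.89, 8.94 and 9.1, non-malignant samples at 8.75, 8.16 and 8.34, and tumors at 7.19, 7.49 and 6.09. The 3 groups did not overlap, and non-malignant array 1 and tumor 3 took the same places as for Il4ra. Il21r fell by 2.06 ± 0.33 (SE) in tumors against controls (4.16-fold lower, limma adjusted p = 0.00473; -2.34 to -1.64 and called without any 1 array). The non-malignant difference from controls was -0.56 ± 0.33 (SE; limma adjusted p = 0.575). The difference of -1.49 ± 0.33 between tumors and non-malignant samples passed (limma adjusted p = 0.0408), but not without any 1 control or non-malignant array (values from -1.62 to -1.33) nor with non-malignant arrays 2 and 3 averaged (-1.58, adjusted p = 0.14). It also ended with the replicate block, no filter, every probe set tested on its own or only the 2 groups in the fit (adjusted p = 0.0588, 0.0516, 0.0596 and 0.119), and at a threshold of 0.01.

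Il4ra and Il21r are adjacent genes on chromosome 7, with no other protein-coding gene between them in RefSeq. Their flanking protein-coding genes, chosen after the values were seen, differed little between tumors and controls: Nsmce1, beside Il4ra, by -0.39 and Gtf3c1, beside Il21r, by -0.1 (limma adjusted p = 0.342 and 0.748). Il2ra and Il15ra are likewise adjacent, on chromosome 2. Their flanking genes Rbm17 and Fbh1 differed from controls by -0.17 and -0.02 in non-malignant samples and by -0.01 and -0.07 in tumors, and none of these 4 differences passed.

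Il17ra, the shared receptor chain for IL-17 cytokines, was lower in tumors. It stood at 10.54, 10.41 and 10.37 in controls, 9.92, 9.64 and 9.71 in non-malignant samples and 9.83, 8.83 and 8.29 in tumors. All controls lay above all other arrays, and tumor 1 lay among the non-malignant samples. Il17ra fell by 1.46 ± 0.33 (SE) in tumors against controls (2.75-fold lower, limma adjusted p = 0.0177). The call ended without control 1, 2 or 3 or tumor 2 (adjusted p = 0.0584, 0.0563, 0.0535 and 0.0574; -1.88 to -1.11 over the 9 fits) and with only the 2 groups in the fit (adjusted p = 0.062). In non-malignant samples the difference was -0.68 ± 0.33 (SE; limma adjusted p = 0.428), which passed with only the 2 groups in the fit (adjusted p = 0.0171). Between tumors and non-malignant samples it was -0.78 (limma adjusted p = 0.172), and -1.2 without tumor 1, where it passed (adjusted p = 0.00442). On the probe set 1420904_at the tumor difference from controls was -1.19 ± 0.38 (SE; limma adjusted p over probe sets = 0.0681).

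The summed level of CD4+CD8+ thymocyte markers was lowest on tumor 3, the array on which Il4ra, Il21r and Il17ra were also lowest. That array was also the farthest from the other groups over all genes tested. The sum of the 6 measured markers was 14.72 to 15.26 in controls, 14.34 to 14.65 in non-malignant samples and 13.86, 13.41 and 11.81 on tumor arrays 1, 2 and 3. Tumors 1 and 2 were ordered the other way by Il4ra (6.68 and 6.76) and Il21r (7.19 and 7.49), but not by Il17ra (9.83 and 8.83). Among the markers, Rag2 was lowest on tumor 2 (5.85, against 6.08 on tumor 3). In tumors against controls 4 of the 6 fell by limma, with Rag2 (-3.27) and Rag1 (-4.4), the V(D)J recombinase genes, and the coreceptor Cd4 (-2.12; its call ended without any 1 control, range -2.6 to -1.5) having the smallest p. B cell markers, a further source of Il4ra and Il21r, summed to 12.42 to 12.77 in controls, 12.38 to 13.09 in non-malignant samples and 11.36 to 12.2 in tumors. Of the 5 tested, 2 fell in tumors, Ighm (-0.89) and Cd79b (-1.38), which form the B cell receptor. Both calls ended without any 1 control, non-malignant 2 or 3 or tumor 2, that of Cd79b also without tumor 1 and that of Ighm without tumor 3 (ranges -1.12 to -0.67 for Ighm and -1.78 to -1.05 for Cd79b). With probe sets averaged, the tumor difference of Ighm from controls was 0.1 and did not pass (limma adjusted p = 0.611). Cd79b was about as low in non-malignant samples (mean 6.18) as in tumors (6.28), against 7.66 in controls. Its fall was thus not particular to tumors, although no B cell marker was called between non-malignant samples and controls. Ighm, at a mean of 12.56 in controls, made up most of the summed B cell level. The other 3 B cell markers were not called in tumors against controls. Cd79a stood at a mean of 5.87 in controls and 6.19 in tumors, Pax5 at 6.06 and 6.36, and Ms4a1 at 5.52 and 5.16. The part of these cell types in the 3 falls was not tested.

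**Figure D3:**
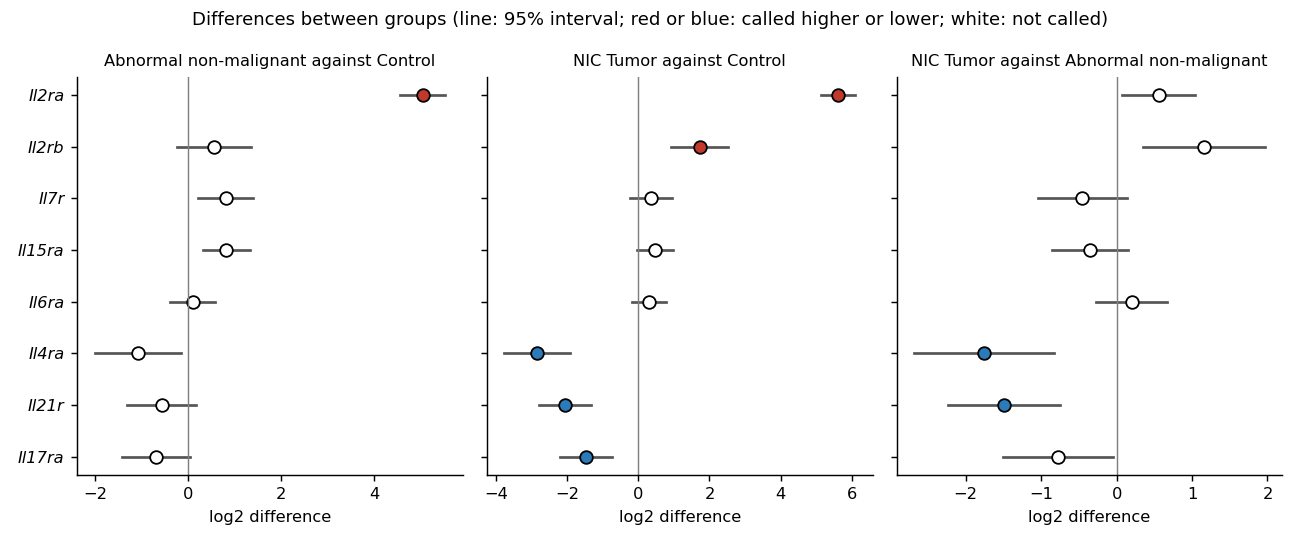
Log2 difference of each chain in the 3 comparisons, with its 95% interval (not adjusted for the number of genes) as a line; red and blue points were called higher and lower at an adjusted p under 0.05. Il2ra stands at 5.05 and 5.61 against controls, and Il4ra, Il21r and Il17ra at -2.84, -2.06 and -1.46 in tumors.

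**Figure D4:**
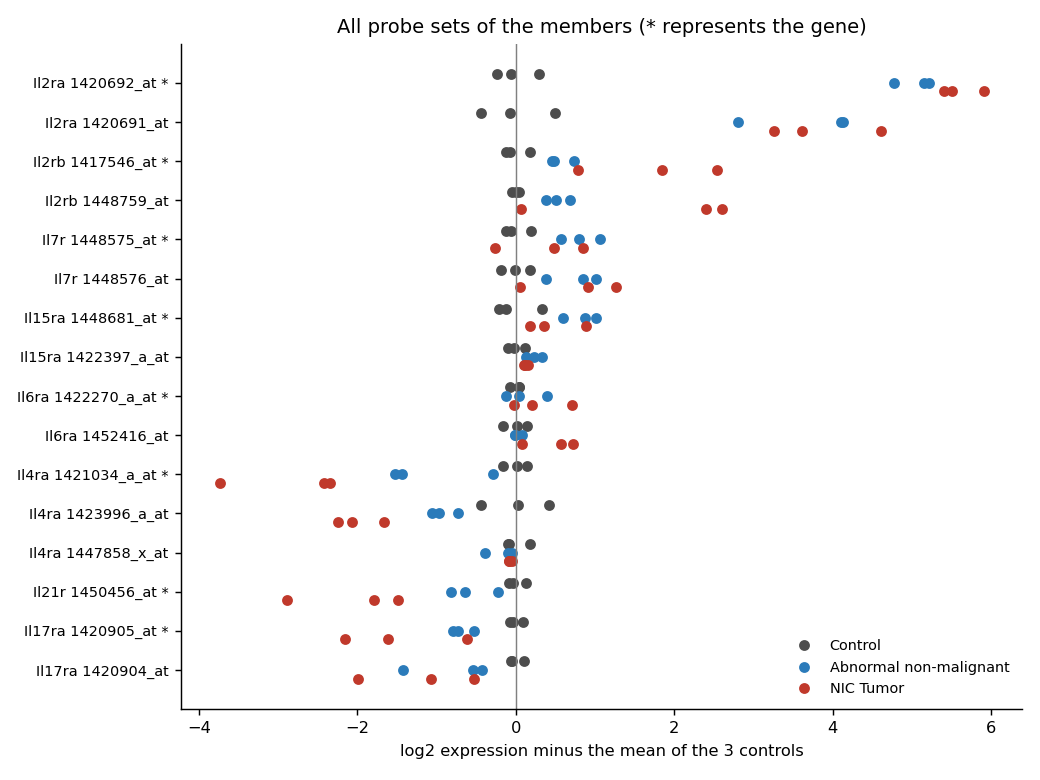
Log2 expression of all 16 probe sets on each array, less the mean of the 3 controls; an asterisk marks the probe set that represents the gene. Both Il2ra probe sets lie far to the right outside controls, and 2 of the 3 Il4ra probe sets lie to the left in tumors while 1447858_x_at does not.

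For each called chain the genes with the nearest pattern were found by the root mean square difference of log2 values over the 9 arrays, each gene centred on its own mean, among 12459 tested genes outside the receptor chains, leaving out clone and predicted gene names. Nearest to Il2ra were Dtx1 (0.5), Mycn (0.65) and Wdr25 (0.69), where Il2ra itself spread by 2.53. Nearest to Il2rb were Gypc (0.22), Ncald (0.24) and Sdc1 (0.26), with a spread of 0.84. Nearest to Il4ra were Lxn, Vamp1 and Tiparp (0.36 to 0.39, spread 1.27). With the other chains included, Il21r ranked 3 from Il4ra (0.39) of 12466 genes, and Il4ra ranked 48 from Il21r. Nearest to Il21r were Rasgrp1, an activator of Ras below the T cell receptor (0.24), Ppp1r13b and Kansl1l (spread 0.95). Nearest to Il17ra were Frmd6, Ilvbl and Ap3s1 (0.12 to 0.13, spread 0.71).

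Among 14 tested interleukin receptor chains outside these 8, 4 rose in non-malignant samples and 1 in tumors, and none fell against controls. Of all genes tested, 2.87% rose in non-malignant samples and 8.48% in tumors. Il12rb2, the signalling chain of the IL-12 receptor, stood at 5.39 to 5.45 in controls, 7.08 to 7.58 in non-malignant samples and 6.67 to 7.85 in tumors, and rose by 1.92 ± 0.27 and 1.91 ± 0.27 (SE; limma adjusted p = 0.0036 and 0.00259). Il5ra, the IL-5 receptor chain, rose in non-malignant samples (1.5 ± 0.2, SE), where 1 of 3 controls exceeded the 40th percentile. The others were Il1r2, a decoy receptor for IL-1 (0.92; called without 1 array except non-malignant 2 or 3, range 0.84 to 0.97) and Il12rb1, the partner of Il12rb2 (1.24; its call ended without any 1 control or non-malignant array, range 1.1 to 1.33). Against a share of 2.7% of all genes, tumors were called lower than non-malignant samples in 2 of the 14. They were Il5ra (-1.02; its call ended without control 1, control 3, any 1 non-malignant array, tumor 2 or tumor 3, range -1.24 to -0.83) and Il10rb, a chain of the IL-10 receptor (-1.04; its call held without tumor 1 and ended without each other array, range -1.17 to -0.81, and it was -0.51 with probe sets averaged).

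Ligands and partner chains gave no call in any comparison by limma. Of 10 ligands with a probe set 4 were bright enough to test, with 1, 0 and 0 at an unadjusted p under 0.05 in the non-malignant, tumor and tumor-to-non-malignant comparisons. Il7 and Il15 lay under the 40th percentile on all 9 arrays. Of 5 partner chains 4 were tested, with 0, 1 and 0 at an unadjusted p under 0.05. Il6st, which encodes gp130, the signalling partner of Il6ra, stood at 10.35, 8.6 and 9.73 in controls and 9.35, 7.54 and 7.03 in tumors (difference -1.58). The groups overlapped, since control 2 lay below tumor 1.

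Among JAK kinases and STAT factors, 0 of 10 passed in non-malignant samples by limma (3 at an unadjusted p under 0.05) and 1 fell in tumors. Of all genes tested, 3.53% were called in non-malignant samples and 7.19% fell in tumors. Stat4, the STAT of the IL-12 receptor, stood at 8.06, 8.32 and 7.93 in controls, 8.19, 8.29 and 8.14 in non-malignant samples and 6.32, 4.8 and 6.2 in tumors. Every tumor lay below every other array. It fell by 2.33 ± 0.35 (SE) on the log2 scale against controls (limma adjusted p = 0.00358), 1 tumor array lying under the 40th percentile, and differed by -2.43 from non-malignant samples (limma adjusted p = 0.00857; the latter call ended without non-malignant 2 or 3, at -2.71 to -1.95 with 1 array left out, and with the pair averaged). The common gamma chain kinase Jak3 differed from controls by 0.75 in non-malignant samples and 0.63 in tumors, and Stat5a by 0.71 and -0.08, without passing.

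**Figure D5:**
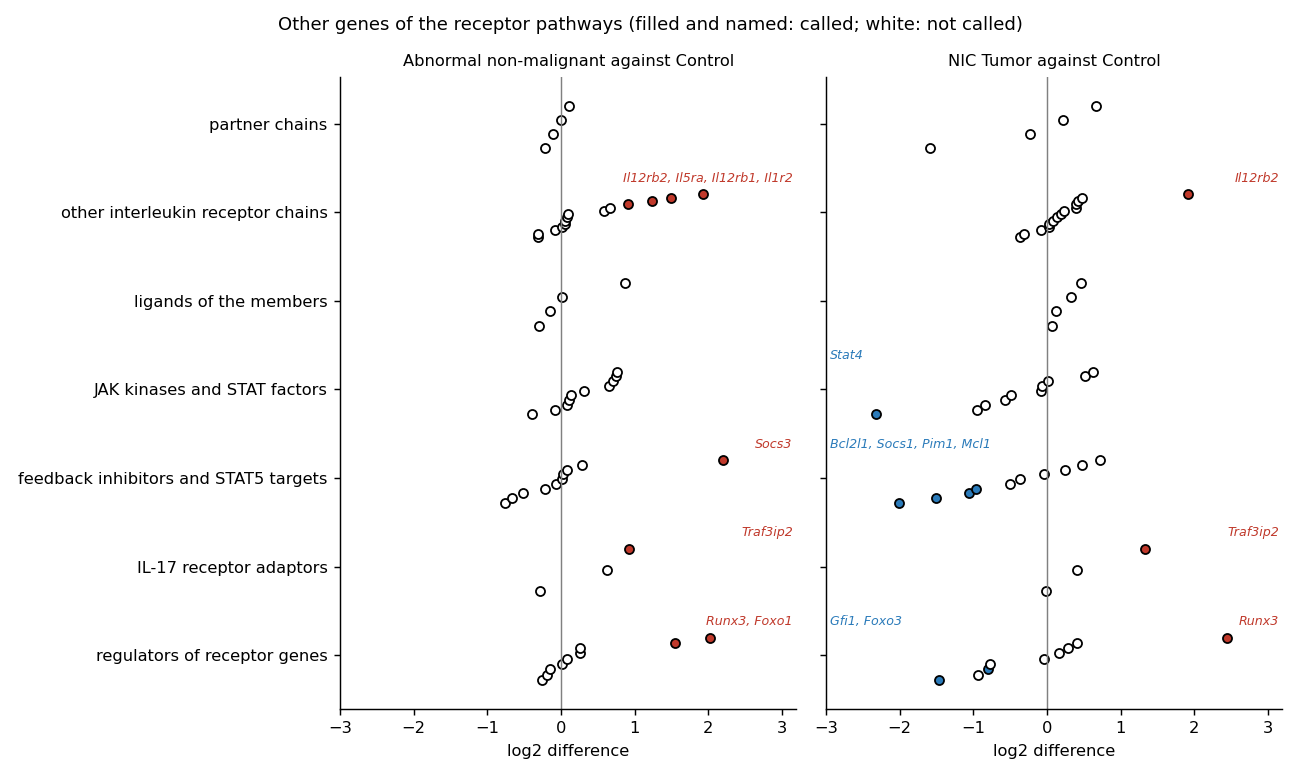
Log2 differences from controls of the tested genes in 7 lists around the receptors, in non-malignant samples (left) and tumors (right), 1 point per gene. Filled, named genes were called, among them Socs3 (2.2) at left and Stat4 (-2.33) at right.

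Feedback inhibitors and STAT5 targets fell in part in the tumors. Of 10 tested, 4 fell and none rose against controls, where 7.19% of all genes fell and 8.48% rose. The median of the 10 was -0.44, beside 0.06 over all genes. The survival gene Bcl2l1 fell by 2.01 ± 0.34 (SE), the JAK inhibitor Socs1 by 1.5 ± 0.3 (SE) and the kinase gene Pim1 by 1.05 (its call ended without control 3, range -1.19 to -0.82). In non-malignant samples 1 of 10 rose, Socs3, an inhibitor of gp130 signalling (2.2 ± 0.41, SE; a call lost on leaving out control 1 or 3 or 1 of the non-malignant arrays, range 1.91 to 2.38). Cish, a STAT5-induced inhibitor, differed from controls by 0.02 and 0.24 and did not pass.

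Of 3 adaptors of the IL-17 receptor, Traf3ip2, which encodes Act1, rose in both groups while Il17ra fell in tumors. It stood at 7.11, 6.84 and 7.07 in controls, 8.1, 7.88 and 7.81 in non-malignant samples and 8.23, 8.43 and 8.34 in tumors. Its rise was 0.92 ± 0.16 (SE) in non-malignant samples, called except without control 2 or non-malignant 2 (range 0.84 to 0.98), and 1.33 ± 0.16 (SE) in tumors (limma adjusted p = 0.0101 and 0.00117). All controls lay below all other arrays.

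Of 9 tested regulators known to act on these receptor genes, 2 rose in non-malignant samples, and 1 rose and 2 fell in tumors. Over all genes tested, 2.87% rose in non-malignant samples, and 8.48% rose and 7.19% fell in tumors. Runx3, a Runx factor of the cytotoxic lineage, stood at 5.72 to 5.96 in controls, 7.69 to 8 in non-malignant samples and 7.54 to 8.74 in tumors (differences of 2.03 ± 0.29 and 2.45 ± 0.29, SE; with its probe sets averaged the first was 1.01 and did not pass, adjusted p = 0.0806). Foxo1, an activator of Il7r, rose in non-malignant samples (1.55; a call that held only without tumor 1 or tumor 3, range 1.39 to 1.73). Gfi1, a repressor of Il7r, fell in tumors (-1.47; likewise called only without tumor 1 or tumor 3, range -1.9 to -0.9). Foxo3 fell there as well (-0.81). Its call ended without control 2, control 3, non-malignant 2 or 3, or tumor 2 or 3 (range -0.95 to -0.63). Gfi1 was also called lower in tumors than in non-malignant samples (-1.74, limma adjusted p = 0.0476). With 1 array left out, that call held only without tumor 1 or tumor 3 (range -2.16 to -1.17).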

How the data were processed

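RNA from sorted cells was extracted with TRIZOL and RNeasy, amplified to biotinylated cRNA and hybridized in a core facility, per the labels' protocols. The deposited table holds values from 2.68 to 14.57, read from this range as log2, with array medians from 5.67 to 5.77. The background correction, normalization and summarization are not given in the sources used here. Probe sets with 1 symbol were mapped to genes through RefSeq (GRCm38.p6), and the probe set with the highest mean over the 9 arrays represented a gene. Genes exceeding their array's 40th percentile on 3 or more arrays were tested. The 9 arrays were fitted together, with a mean for each group, in limma 3.58.1 in R 4.3.3 (lmFit, eBayes with a trend, two-sided), adjusted by Benjamini-Hochberg over 13296 genes and called under 0.05. This script was checked on simulated data. The number of arrays limits the precision. Tables were handled in Python 3.11.15 with pandas 2.3.3. A summed marker level is the log2 of the sum of the list's linear values.

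The members and lists were chosen with earlier results of these data known. Named are all members and their probe sets, called list genes (at most 3 per list and comparison, by adjusted p) and the 3 nearest patterns of each called member; others, such as Jak3, Stat5a, Cish, Il6st, Foxp3, Klrd1, Il7 and Il15, were picked with their values in view. The 22 alternatives were other scalings, filters, probe set rules, variance models and array weights, the 2 groups alone, a replicate block, a stricter threshold, the near-identical arrays averaged and each array left out with its probe sets kept.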

Additional observations from a re-analysis of the deposited data

How the results depend on the processing

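Of 528 values of the 8 chains under the alternatives, 468 kept their direction and side of the threshold, 38 lost and 18 gained a call, and 4 changed sign, all of chains not called. These were Il6ra in non-malignant samples against controls with array weights (-0.0054), Il7r in tumors against controls with array weights (-0.075), and Il6ra with 1 array left out, which ran from -0.045 to 0.21 in non-malignant samples against controls and from -0.0068 to 0.36 between tumors and non-malignant samples. Of 1078 values of the 49 calls of listed genes, 879 kept their call, 198 lost it and 1 changed sign, Ighm in tumors against controls with probe sets averaged (0.10).

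Members called between non-malignant samples and controls numbered 1, but 6 with array weights and 5 with the 2 groups alone (1 to 2 with 1 array left out). Between tumors and controls they numbered 5, but 6 with array weights and 3 with the 2 groups alone or a threshold of 0.01 (3 to 5). Between tumors and non-malignant samples they numbered 2, but 6 with array weights, 1 with quantile or median scaling, which both left Il21r called, and 0 with no filter, the 2 groups alone, the threshold of 0.01 or arrays 2 and 3 averaged (0 to 3). With the replicate block they also numbered 0, and 1 and 5 in the other comparisons.

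Over all genes, 469 were called between non-malignant samples and controls, 2083 between tumors and controls, and 562 between the tumor and non-malignant groups. With array weights these were 2421, 4885 and 5700, with the 2 groups alone 1119, 841 and 110, at 0.01 they were 233, 584 and 83, and with non-malignant 2 and 3 averaged 218, 1468 and 73. With 1 array left out they ran from 205 (without non-malignant 2) to 708 (without tumor 1), 926 (without control 2) to 4121 (without tumor 1) and 53 (without non-malignant 3) to 3400 (without tumor 1). With the replicate block they were 399, 1915 and 287. Deviations of same-numbered arrays from their group means correlated from -0.05 to 0.22. Differently numbered arrays were not set beside them, so these values do not tell whether the numbers pair the samples. Scaling moved the median of all genes by at most 0.05.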
